A study of Mus musculus with 18 samples.

Results

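The germline and meiosis genes described here are 44 genes whose products serve male or female germ cells, taken by symbol from the 27179 genes of the count table of thymic epithelial cells (TEC). Of these, 38 are testis genes and 6 are egg genes. The testis genes were split into 13 genes of the piRNA pathway and germ granules, 14 genes of meiosis and 11 genes of spermatids and sperm. RNA-seq was measured in Kat7 knockout (KO) and wildtype (WT) mice, all labelled C57BL/6. From each of 3 KO pools of mice (numbered 4 to 6) and 3 WT pools (numbered 1 to 3), 1 library was made of each of 3 sorted subsets, so the 18 libraries formed 6 groups of 3. The subsets were medullary TEC with high surface MHC class II (mTEChi), medullary TEC with low MHC class II (mTEClo) and cortical TEC (cTEC). The groups were thus KO mTEChi and WT mTEChi, KO mTEClo and WT mTEClo, and KO cTEC and WT cTEC. How many mice a pool held, their ages, the deleted part of Kat7, the cells in which it was deleted and the days of sorting are not given in the sources used here, and any batch of the pools cannot be told apart from the genotype.

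TEC are the stromal cells on which T cells mature. Mature medullary TEC transcribe genes that are otherwise confined to other organs, germ cell genes among them, and display the products to developing T cells, which lets T cells that react to the body's own proteins be removed. Much of this expression in mTEChi depends on the autoimmune regulator AIRE. In somatic cells many germline genes are kept silent by DNA methylation of CpG-rich promoters and by a repressor complex, PRC1.6, whose subunits bind E-box and E2F motifs. KAT7 (HBO1) is a histone acetyltransferase that modifies histone H3 and H4 tails at genes.

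The promoters of 6 members are printed: Stag3, Zp3, Tdrd9, Dmc1 and Nlrp5, which are all the members called lower in KO cells of more than 1 subset, and Piwil4, which was called in none. Nlrp5 has 2 annotated starts, and both are shown. The Stag3 window lies inside the span of that gene, chr5:138272514-138312397, and the upstream end of the span was not searched. Each window is the RefSeq GRCm38.p6 window from 250 bases before to 50 bases after the transcription start, 5′ to 3′ on the gene's own strand, with capitals on the E-box motif CACGTG and on the E2F motif TCCCGC or its reverse complement. They lie at chr5:138280259-138280558 (plus strand) for Stag3, chr5:135979855-135980154 (plus strand) for Zp3, chr12:111971309-111971608 (plus strand) for Tdrd9, chr15:79605060-79605359 (minus strand) for Dmc1, chr7:23385639-23385938 and chr7:23403852-23404151 (plus strand) for Nlrp5 and chr9:14740623-14740922 (minus strand) for Piwil4.
Stag3: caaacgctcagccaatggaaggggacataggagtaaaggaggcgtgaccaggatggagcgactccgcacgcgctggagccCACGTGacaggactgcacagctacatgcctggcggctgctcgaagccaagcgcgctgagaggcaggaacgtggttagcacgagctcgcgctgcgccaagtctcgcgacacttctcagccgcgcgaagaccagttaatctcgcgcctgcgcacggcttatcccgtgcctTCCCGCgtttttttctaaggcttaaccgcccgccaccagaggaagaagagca
Zp3: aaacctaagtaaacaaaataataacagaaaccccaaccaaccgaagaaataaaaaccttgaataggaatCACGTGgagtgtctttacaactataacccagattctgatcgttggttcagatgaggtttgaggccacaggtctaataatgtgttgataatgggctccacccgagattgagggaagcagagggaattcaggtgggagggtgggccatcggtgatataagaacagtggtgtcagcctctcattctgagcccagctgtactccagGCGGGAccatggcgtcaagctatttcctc
Tdrd9: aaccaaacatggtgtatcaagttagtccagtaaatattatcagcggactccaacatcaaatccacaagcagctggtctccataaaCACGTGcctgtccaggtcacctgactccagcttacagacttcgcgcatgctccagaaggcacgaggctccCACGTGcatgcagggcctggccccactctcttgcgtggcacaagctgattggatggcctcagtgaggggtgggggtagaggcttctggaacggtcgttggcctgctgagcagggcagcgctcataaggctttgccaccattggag
Dmc1: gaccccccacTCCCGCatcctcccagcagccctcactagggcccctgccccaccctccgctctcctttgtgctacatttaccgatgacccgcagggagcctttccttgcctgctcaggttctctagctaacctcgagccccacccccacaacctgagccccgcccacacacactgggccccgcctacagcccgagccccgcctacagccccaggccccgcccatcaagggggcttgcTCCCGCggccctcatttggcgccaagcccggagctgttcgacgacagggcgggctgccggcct
Nlrp5, upstream start: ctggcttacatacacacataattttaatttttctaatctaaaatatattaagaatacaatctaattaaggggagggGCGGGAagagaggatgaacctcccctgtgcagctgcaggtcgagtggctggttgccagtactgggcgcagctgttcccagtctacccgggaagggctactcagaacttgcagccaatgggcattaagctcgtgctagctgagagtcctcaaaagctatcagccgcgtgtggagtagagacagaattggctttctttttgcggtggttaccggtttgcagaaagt
Nlrp5, downstream start: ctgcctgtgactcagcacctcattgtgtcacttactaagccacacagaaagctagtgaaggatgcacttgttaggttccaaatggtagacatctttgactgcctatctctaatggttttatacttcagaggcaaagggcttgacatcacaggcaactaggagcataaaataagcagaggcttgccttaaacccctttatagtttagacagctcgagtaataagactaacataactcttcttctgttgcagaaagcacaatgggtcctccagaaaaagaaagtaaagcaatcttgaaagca
Piwil4: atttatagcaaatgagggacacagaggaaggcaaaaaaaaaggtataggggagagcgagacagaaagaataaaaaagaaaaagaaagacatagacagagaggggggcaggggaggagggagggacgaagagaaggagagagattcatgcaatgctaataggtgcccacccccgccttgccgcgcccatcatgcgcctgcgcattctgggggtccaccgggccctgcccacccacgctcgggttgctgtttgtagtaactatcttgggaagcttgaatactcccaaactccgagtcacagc

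Stag3 and Zp3 hold 1 copy of each motif, Tdrd9 holds 2 copies of CACGTG alone and Dmc1 2 copies of TCCCGC alone. The upstream Nlrp5 window holds 1 copy of TCCCGC, and the downstream one holds neither motif. Piwil4 holds neither, also in the window of its other annotated start, which is not printed. The E-box was thus in 3 of these 5 lower genes. It was also in Piwil1, called lower in KO mTEChi alone, and in Brdt, called lower in KO mTEClo alone. Ddx4, Hormad1, Tdrd1 and Sycp3 held it as well and were called in no KO comparison. Mael, Mov10l1 and Sycp1, which held it too, were not tested. RefSeq promoter windows were found for 35 of the 44 members; Tdrd6, Piwil2, Tex15, Spo11, Odf1, Adam2, Zp1, Zp2 and Gdf9 had none in the table. CACGTG, searched on both strands in every window of a gene, was present in 12 of the 35 members (34.3%), against 8.09% of the 27025 genes of the table. TCCCGC, also on both strands, was present in 14 of 35 (40.0%), against 22.0% of all genes, and the cAMP response element TGACGTCA in 0 of 35, against 2.03%. No copies overlap in the printed windows. Taking for each gene the window with the most CpG sites, the 35 members had a median of 16 sites in 300 bases, with a range of 1 to 38, against a median of 8 for all genes. Over all 41 windows of the members the median was 15, against 7 for the 32851 windows of the table. Of the 12 members with CACGTG, Brdt, Ddx4, Hormad1, Mael, Mov10l1, Piwil1, Stag3, Sycp1, Sycp3, Tdrd1 and Tdrd9 are testis genes and Zp3 is an egg gene. These matches describe letters in the windows and nothing about binding in TEC.

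Library totals ran from 6802970 to 13373646 counts in KO mTEChi and from 3554089 to 8445355 in WT mTEChi, from 14411708 to 19356071 in KO mTEClo and from 6565309 to 9815559 in WT mTEClo, and from 15822957 to 20054360 in KO cTEC and from 13300969 to 18338441 in WT cTEC. Levels below are in CPM, the usual count relative to library size, with library sizes scaled by TMM, and tests are edgeR's quasi-likelihood test with Benjamini-Hochberg adjustment over 19364 genes, called at an adjusted p below 0.05. Kat7 itself averaged 2.33 ± 0.753 CPM in KO mTEChi and 54.2 ± 5.72 CPM in WT mTEChi (SD, n = 3 each), and it was lower in all 9 KO libraries than in any WT library. Aire averaged 677 CPM in KO mTEChi and 1180 CPM in WT mTEChi but 17.3 to 49.8 CPM in the means of the other 4 groups. Psmb11, the thymoproteasome subunit of cortical cells, averaged 651 CPM in KO cTEC and 232 CPM in WT cTEC. The marker lists were mixed. Of 10 mTEC markers, 7 were higher and 3 lower in WT mTEChi than in WT cTEC, against 35.9% and 28.5% of all genes. Their mean sums were 4640 CPM in WT mTEChi, 6150 CPM in WT mTEClo and 4410 CPM in WT cTEC. In KO mice the sums were 5060, 5120 and 3510 CPM. Of 10 cTEC markers, 0 were higher and 6 lower in WT mTEChi than in WT cTEC. Psmb11 was not restricted to cTEC, with 91.3 CPM in KO mTEChi and 20.8 CPM in WT mTEChi.

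Expression of the germline genes was concentrated in mTEChi. The highest of the 6 group means lay in WT mTEChi for 36 of the 44 members, in KO mTEChi for 2 (Zp2 and Zpbp), in WT mTEClo for 2 (Stag3 and Tnp1), in KO cTEC for 2 (Brdt and Sycp3) and in WT cTEC for 2 (Rec8 and Gdf9). This ranks the means alone, however close, and the same share over all genes was not counted. The place of Tnp1 rests on 1 read in WT mTEClo, beside 1 read each in KO mTEChi and KO mTEClo. A mean of at least 1 CPM was reached by 26 members in KO mTEChi and 36 in WT mTEChi, by 12 in KO mTEClo and 10 in WT mTEClo, and by 11 each in KO cTEC and WT cTEC. Most were low: at least 10 CPM was reached by 5 members in KO mTEChi and 6 in WT mTEChi, by 2 in KO mTEClo and 1 in WT mTEClo, and by 0 in KO cTEC and 1 in WT cTEC.

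**Figure D1:**
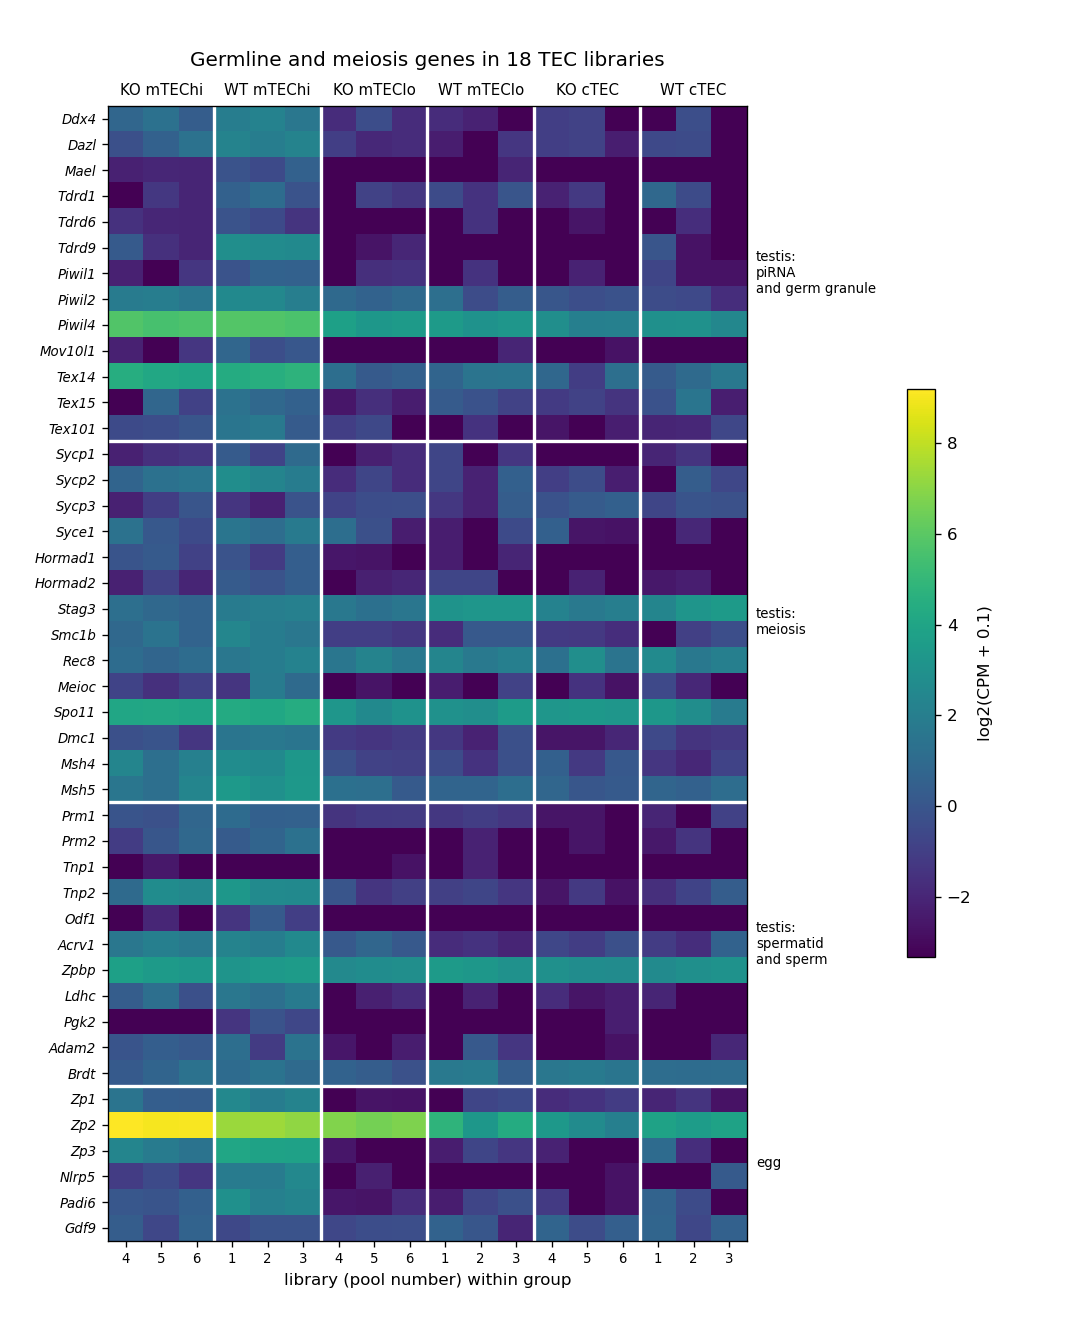
Heat map of the 44 members (rows, split into piRNA, meiosis, spermatid and egg genes) in the 18 libraries (columns, by group and pool), coloured by log2(CPM + 0.1). The mTEChi columns are brighter than the others for most rows, Zp2 is the brightest row in KO mTEChi at 512 to 581 CPM, and CPM is not adjusted for gene length.

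Because the libraries differed in depth, detection was also counted after each was thinned to 3554089 counts, as the mean of 10 draws. Of the 38 testis genes, 29 to 30.3 had at least 1 read in the KO mTEChi libraries and 35.8 to 37 in the WT mTEChi libraries. With at least 5 reads there were 15.3 to 17.2 testis genes in KO mTEChi and 25.7 to 27.6 in WT mTEChi, and 2.7 to 3.8 of the 6 egg genes in KO mTEChi and 5 to 5.2 in WT mTEChi. The KO and WT mTEChi libraries did not overlap in any of these counts. Egg genes with at least 1 read were 5.7 to 5.9 in KO mTEChi and 5.9 to 6 in WT mTEChi, which meet. Detection of all genes was not counted, so these counts do not show a drop particular to germline genes. In mTEClo 7.8 to 9.8 testis genes had at least 5 reads in KO libraries and 8.3 to 9.3 in WT libraries, and in cTEC 7 to 9 in KO libraries and 8.6 to 9 in WT libraries, which overlap. Fewer cells that express a gene and less RNA per cell cannot be told apart in these bulk libraries.

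**Figure D2:**
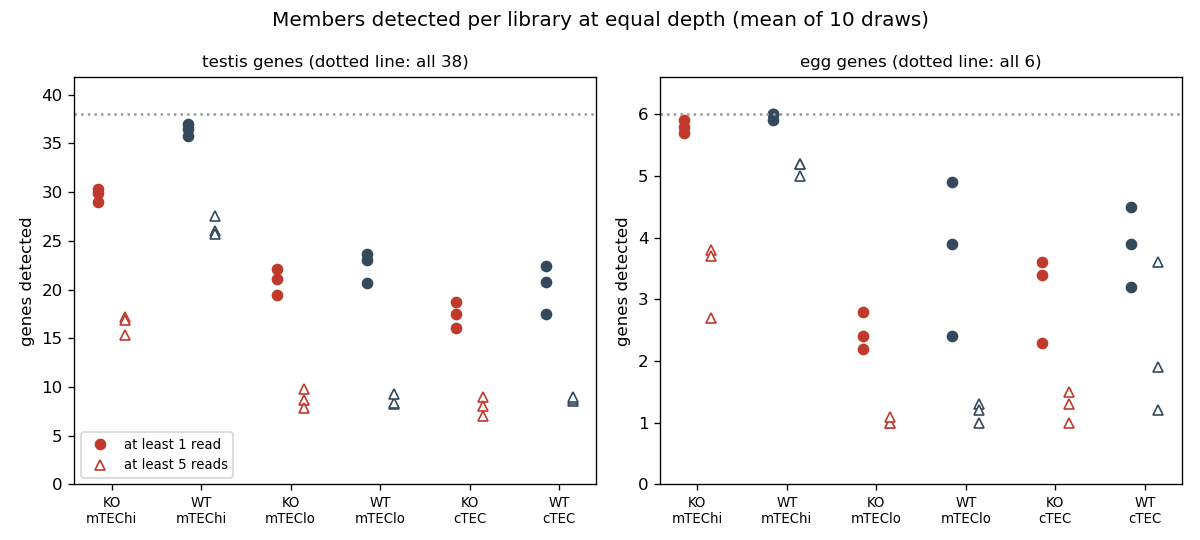
Number of testis genes (left) and egg genes (right) with at least 1 read (filled circles) and at least 5 reads (open triangles) in each library thinned to the same total, KO in red and WT in dark blue. In mTEChi the KO libraries lie below the WT libraries at 5 reads in both panels; in mTEClo they overlap.

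In the comparison of subsets, the filter on low counts kept 36 members, 30 of 38 testis genes and all 6 egg genes. Mael, Tdrd6, Mov10l1, Sycp1, Meioc, Tnp1, Odf1 and Pgk2 were not tested. Since many members passed the filter through their mTEChi libraries, the counts that follow describe the tested members and do not support a tendency of all 44. In KO mice 20 of 36 were higher in mTEChi than in mTEClo, against 23% of all genes tested, and 0 were lower, against 22.4%; 45.3% of all genes passed in either direction. In WT mice 26 were higher in mTEChi than in mTEClo (32.6% of all genes) and 1, Stag3, was lower (26.7%; 59.3% in either direction). Against KO cTEC 26 were higher in KO mTEChi (34% of all genes) and 2, Stag3 and Rec8, were lower (28.4%; 62.3% in either direction). Against WT cTEC 29 were higher in WT mTEChi (35.9% of all genes) and 1, again Stag3, was lower (28.5%; 64.4% in either direction). After thinning, the members higher in mTEChi were 11 against KO mTEClo, 15 against KO cTEC and 18 against WT cTEC. Of the 16518 genes tested after thinning, 3702, 5371 and 5514 were higher in these comparisons. Members that the filter dropped after thinning count as not called. The median log2 difference of the tested members between mTEChi and mTEClo was 2.22 in KO and 2.97 in WT mice, beside -0.05 and 0.08 for all genes, and that between mTEChi and cTEC was 2.57 in KO and 3.19 in WT mice, beside 0.04 and 0.13.

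For the KO effect, 8 members were lower and 1 was higher in KO mTEChi than in WT mTEChi, against 19.3% and 17.1% of all genes tested (36.4% in either direction). In this fit the share that was lower, 8 of 36, was near that of all genes. With only the mTEChi libraries fitted, 14 members and 4515 of 17338 genes were lower. The median log2 fold change of the tested members was -1.0, with 31 of 36 below 0. For all genes the median was -0.11, with 10830 of 19364 below 0. Many members passed the filter on low counts through their mTEChi libraries, so these values describe the tested members alone. In mTEClo 4 members were lower and 2 higher (15.8% and 18.9% of all genes, 34.7% in either direction), with a median of -0.20 beside 0.01. The mTEClo median was -0.32 with no filter on low counts, -0.43 after thinning to equal depth, -0.32, -0.43 and -0.33 without KO pool 4, 5 and 6, -0.36 without WT pool 2 and -0.04 without WT pool 3. In cTEC 7 were lower and 1 higher (26.7% and 22.3% of all genes, 49% in either direction), with a median of -0.46 beside -0.02. The cTEC median was -0.14 with only the cTEC libraries fitted, -0.82 after thinning and -0.74 without KO pool 5. The count of lower members in mTEChi fell to 5 without KO pool 4, 5 or 6 and to 4 without WT pool 3. All lower genes in these fits were 2619 of 19913, 2875 of 19915, 2739 of 19923 and 2436 of 19614, beside 3741 of 19364 as reported. In mTEClo the count of lower members fell to 2 after thinning or without KO pool 4 and to 1 without KO pool 5, KO pool 6 or WT pool 2. Of all genes, 2897 of 16518 were lower in mTEClo after thinning, beside 3056 of 19364 as reported. Without these 4 pools in turn, 2533 of 19920, 2536 of 19921, 2406 of 19915 and 2346 of 19901 were lower. In cTEC the count of lower members fell to 2 with only the cTEC libraries fitted and to 3 without KO pool 5 or 6. It was 4 after thinning or without WT pool 1, and 10 without WT pool 3. Of all genes, 3956 of 16357 were lower with only the cTEC libraries fitted and 4431 of 16518 after thinning, beside 5166 of 19364 as reported. Lower genes were 4443 of 19920 without KO pool 5 and 4561 of 19919 without KO pool 6. They were 4831 of 19899 without WT pool 1 and 5151 of 19869 without WT pool 3. The count of higher members in cTEC was 0 without KO pool 4 or 6, after thinning, with no filter and with only the cTEC libraries fitted. Of all genes, 3775 of 19914 and 3774 of 19919 were higher without these pools, and 3043 of 16518 after thinning. With no filter 4091 of 24856 were higher, and with only the cTEC libraries fitted 3168 of 16357. The KO effect itself differed between mTEChi and mTEClo for 1 member, Acrv1, which was lower, and 0 were higher (6.77% and 6.71% of all genes, 13.5% in either direction). Between mTEChi and cTEC it differed for 1 higher member, Zp2, and 1 lower member, Msh4 (18.3% and 13.2% of all genes, 31.5% in either direction). The 3 subsets of a genotype came from the same pools.

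**Figure D3:**
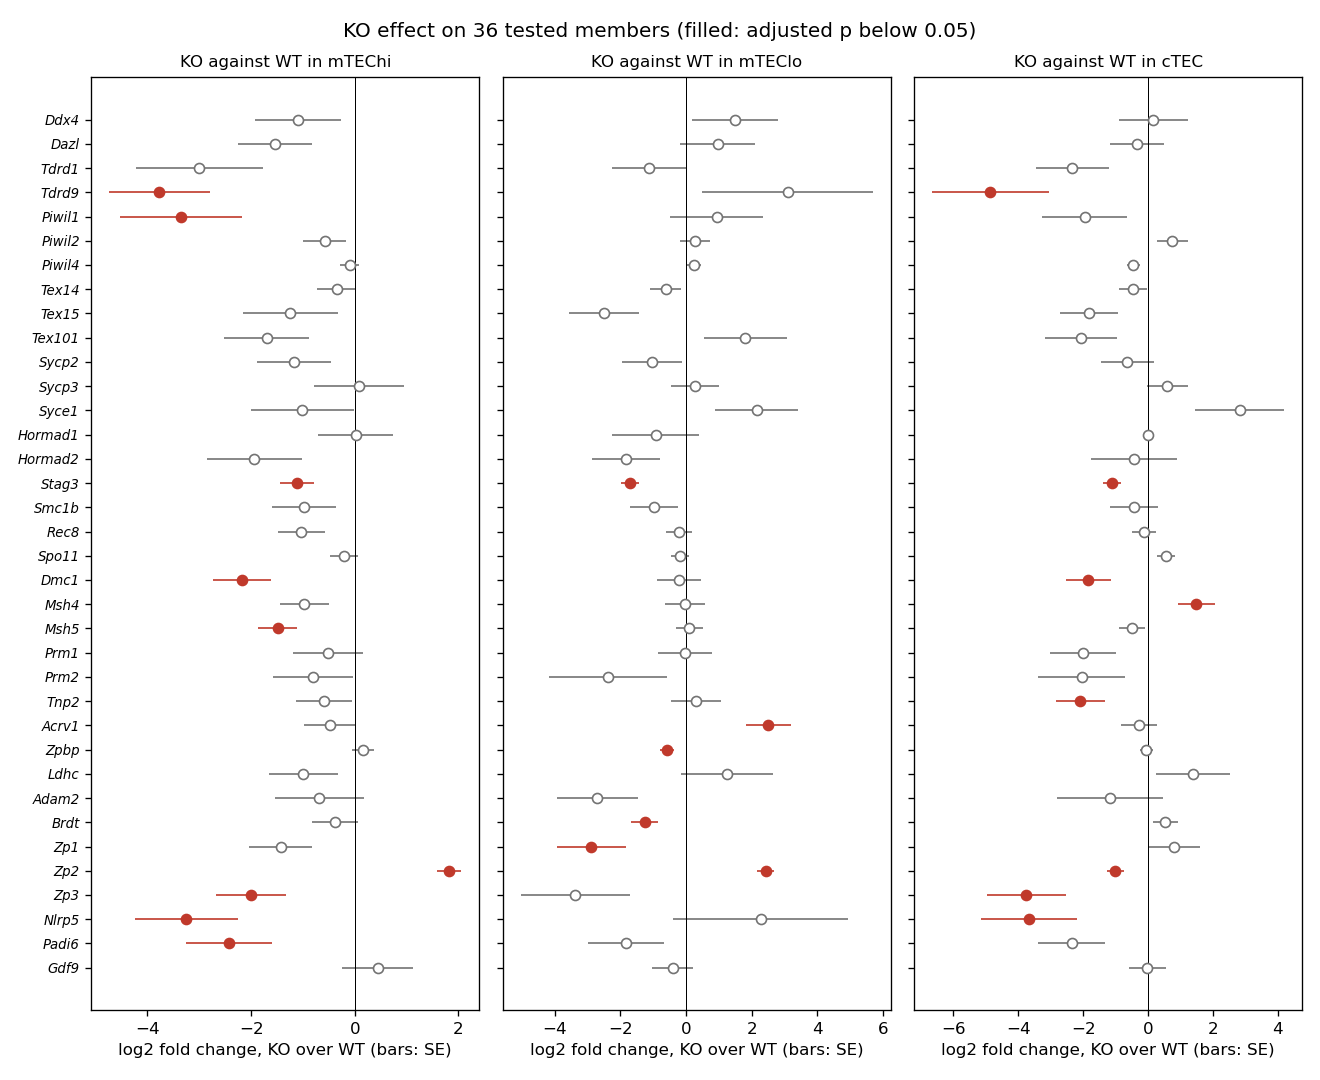
Log2 fold change of KO over WT with its SE for the 36 tested members in mTEChi, mTEClo and cTEC, each panel with its own horizontal scale; filled red points passed an adjusted p of 0.05. In mTEChi the points lie mostly left of 0, with Zp2 at 1.82 as the only filled point on the right, and error bars are wide where a gene had few reads, as for Tdrd9 in mTEClo.

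Most of the piRNA and germ granule genes silence transposons or handle RNA in male germ cells. Of 10 tested, 2 were lower in KO mTEChi, 0 in mTEClo and 1 in cTEC, and 0 were higher in any subset. Of all genes, 19.3%, 15.8% and 26.7% were lower in these subsets, and 17.1%, 18.9% and 22.3% were higher. The share lower in mTEChi was thus near that of all genes, and the others lay below theirs. Tdrd9 (Entrez 74691, chr12:111971488-112068854) encodes a tudor-domain RNA helicase of the piRNA pathway. It had 1.08, 0.228 and 0.147 CPM in KO mTEChi libraries, against 7.20, 6.54 and 6.10 CPM in WT mTEChi libraries. All 3 WT values were above all 3 KO values. The log2 fold change was -3.77 (SE 0.97, adjusted p = 0.00691), and the call held in all 11 alternatives run. In cTEC Tdrd9 had 0 reads in the 3 KO libraries together, against 0.874, 0.0531 and 0 CPM, 13 reads in all, in WT libraries, which is at least 4.18-fold lower, taking 3 reads per group as the floor. This cTEC call (adjusted p = 0.035) rested on WT pool 1: without it the adjusted p was 0.37. Without KO pool 4, 5 or 6 it was 0.0694 to 0.0826, and after thinning 0.157.

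Piwil1 (Entrez 57749, chr5:128736071-128755474) encodes MIWI, a piRNA-binding protein of spermatids. It had 0.120, 0 and 0.295 CPM in KO mTEChi libraries, against 0.831, 1.43 and 1.36 CPM in WT mTEChi libraries. That is 3 reads in KO libraries and 25 in WT libraries, a level 12.2-fold lower in KO (95% interval from counting error 3.72 to 63.1; adjusted p = 0.0308). The groups did not overlap, but the call was lost without KO pool 4 or 5 or WT pool 2 or 3 (adjusted p = 0.0856 to 0.135) and with DESeq2 (0.0766).

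Piwil4, which encodes MIWI2, the nuclear piRNA-binding protein of fetal male germ cells, had no called change in the fit of all groups. It stood at 54.4, 47.2 and 50.7 CPM in KO mTEChi libraries, against 57.9, 54.8 and 50.6 CPM in WT mTEChi libraries (log2 fold change -0.10, SE 0.19, adjusted p = 0.7). Its mTEClo levels were 9.64 to 13.5 CPM in KO and 8.16 to 11.3 CPM in WT libraries, and in cTEC 4.08 to 7.07 CPM in KO and 5.49 to 8.02 CPM in WT libraries. The KO and WT values overlapped in every subset, though Piwil4 was called lower in KO cTEC with RLE size factors (-0.52, adjusted p = 0.0476), with DESeq2 (-0.53, 0.0395), without KO pool 4 (-0.75, 0.00706) and without WT pool 3 (-0.61, 0.0238). The mTEChi level of Piwil4 was above that of mTEClo in both KO mice (log2 difference 2.16, SE 0.20, adjusted p = 2.71e-08) and WT mice (2.49, SE 0.21, adjusted p = 4.53e-09). Tex14, a kinase-like protein that keeps open the bridges between dividing germ cells, showed a like pattern, with 22.0, 17.7 and 15.9 CPM in KO mTEChi libraries, against 20.8, 22.7 and 27.4 CPM in WT mTEChi libraries (-0.35, SE 0.37, adjusted p = 0.471). Outside mTEChi Tex14 lay at 0.389 to 3.09 CPM in all 12 libraries.

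Piwil2, which encodes the piRNA-binding protein MILI, had 3.59, 3.87 and 2.95 CPM in KO mTEChi libraries, against 6.09, 5.71 and 3.93 CPM in WT mTEChi libraries. All 3 KO values were the lower ones, but the difference did not pass the test (-0.58, SE 0.42, adjusted p = 0.29). The helicase gene Ddx4, the RNA-binding gene Dazl, and Tdrd1, Tex15 and Tex101 were not called in any KO comparison, with mTEChi log2 fold changes of -3.00 to -1.09. Mael, Tdrd6 and Mov10l1, not tested, had at most 0.295 CPM in any KO mTEChi library, against 0.271 to 1.66 CPM in WT mTEChi libraries.

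Among the meiosis genes, 3 of 12 tested were lower in KO mTEChi, 1 in mTEClo and 2 in cTEC, and 1 was higher in cTEC. Of all genes, 19.3%, 15.8% and 26.7% were lower in these subsets, and 22.3% were higher in cTEC. The counts of members lay near or below these shares. Stag3 (Entrez 50878, chr5:138272514-138312397), a cohesin subunit that holds sister chromatids together in meiosis, was lower in all 3 subsets. In mTEChi it had 2.27, 1.75 and 1.47 CPM in KO libraries, against 3.60, 4.04 and 4.21 CPM in WT libraries. In mTEClo it had 3.11, 2.37 and 2.86 CPM in KO libraries, against 8.38, 9.33 and 9.37 CPM in WT libraries, and in cTEC 4.49, 3.24 and 3.95 CPM in KO libraries, against 5.10, 9.02 and 11 CPM in WT libraries. In each subset every KO library lay below every WT library. The log2 fold changes were -1.11 in mTEChi (SE 0.33, adjusted p = 0.0123), -1.70 in mTEClo (SE 0.28, adjusted p = 0.000109) and -1.11 in cTEC (SE 0.27, adjusted p = 0.00218). The mTEChi call was lost without KO pool 6 (adjusted p = 0.0509), the cTEC call was lost after thinning to equal depth (0.0657), and the mTEClo call held in all alternatives run. The KO effect in mTEChi differed from that in mTEClo by 0.58 (SE 0.43, adjusted p = 0.417). Unlike most members, Stag3 was lower in mTEChi than in cTEC in both KO and WT mice (log2 difference -1.08 in each; SE 0.31 in KO and 0.29 in WT; adjusted p = 0.00491 in KO and 0.00296 in WT).

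Dmc1 (Entrez 13404, chr15:79561497-79605159) encodes the meiotic recombinase. Its levels were 0.718, 0.835 and 0.295 CPM in KO mTEChi libraries, against 2.77, 3.09 and 2.85 CPM in WT mTEChi libraries, with no overlap (log2 fold change -2.17, SE 0.56, adjusted p = 0.00584). In cTEC they were 0.0661, 0.0648 and 0.158 CPM in KO libraries, against 0.582, 0.265 and 0.320 CPM in WT libraries (-1.84, SE 0.70, adjusted p = 0.0354). The mTEChi call held in all alternatives run; the cTEC call was lost without KO pool 4 or 5 or WT pool 1 (adjusted p = 0.101 to 0.126), with DESeq2 (0.0526) and with no filter on low counts (0.0631). In mTEClo the level was 0.282 to 0.357 CPM in KO and 0.130 to 0.744 CPM in WT libraries, which overlap.

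Msh4 and Msh5 encode the partners of a heterodimer that stabilises crossovers. Msh5 (Entrez 17687, chr17:35028605-35046997) had 2.87, 2.28 and 5.01 CPM in KO mTEChi libraries, against 10.3, 7.73 and 10.2 CPM in WT mTEChi libraries (log2 fold change -1.49, SE 0.38, adjusted p = 0.00508), again with no overlap, and the call held in all alternatives run. Msh4 had 5.02, 2.28 and 4.27 CPM in KO mTEChi libraries, against 6.65, 5.94 and 9.77 CPM in WT mTEChi libraries. Each KO library of Msh4 lay below each WT library, yet the difference did not pass the test in the fit of all groups (-0.97, SE 0.47, adjusted p = 0.112) and did when mTEChi libraries alone were fitted (-0.99, adjusted p = 0.0223). In cTEC Msh4 was higher, with 1.32, 0.324 and 1.00 CPM in KO libraries, against 0.291, 0.159 and 0.479 CPM in WT libraries (1.48, SE 0.57, adjusted p = 0.039). The cTEC groups overlapped, and this call was lost without KO pool 4 or 6 or WT pool 1 or 2 (adjusted p = 0.0775 to 0.173), with no filter on low counts (0.0509) and after thinning (0.311).

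Spo11, which encodes the enzyme that cuts DNA to start meiotic recombination, was detected in all 18 libraries. It had 16.7, 17.8 and 15.9 CPM in KO mTEChi libraries, against 19.7, 17.6 and 21.0 CPM in WT mTEChi libraries, and 5.92 to 9.33 CPM in KO mTEClo and 7.13 to 11.6 CPM in WT mTEClo. In cTEC it had 9.42 to 10.2 CPM in KO and 3.57 to 9.61 CPM in WT libraries. KO and WT overlapped in every subset, with no call (adjusted p = 0.57 in mTEChi, 0.65 in mTEClo and 0.0963 in cTEC), except that Spo11 was called higher in KO cTEC without WT pool 1 (0.89, adjusted p = 0.0104). Sycp2, of the lateral element of the synaptonemal complex, had 1.55, 2.43 and 2.80 CPM in KO mTEChi libraries, against 6.93, 4.87 and 3.66 CPM in WT mTEChi libraries. These did not overlap either, and the call came only when mTEChi alone was fitted (-1.10, adjusted p = 0.0147) or the libraries were thinned (-1.46, 0.0291), not in the fit of all groups (-1.17, SE 0.71, adjusted p = 0.205). The other tested meiosis genes, Sycp3, Syce1, Hormad1, Hormad2, Smc1b and Rec8, were not called in any KO comparison. Of Sycp3 exons, 660 of 1264 bases (52.2%) lie opposite exons of Chpt1 in GENCODE M21. Libraries of this kind do not record strand, so reads within these bases cannot be told apart from those of Chpt1. How such reads were counted is not given in the sources used here.

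Of the spermatid and sperm genes, which package DNA, build the acrosome or serve sperm metabolism, 0 of 8 tested were called in mTEChi. In mTEClo 2 were lower and 1 higher, and in cTEC 1 was lower. Of all genes, 36.4% were called in mTEChi in either direction. In mTEClo 15.8% of all genes were lower and 18.9% higher, and in cTEC 26.7% were lower. Acrv1, which encodes an acrosomal protein, was the higher member in mTEClo. It had 1.01, 1.63 and 1.02 CPM in KO mTEClo libraries, against 0.204, 0.259 and 0.149 CPM in WT mTEClo libraries, so the lowest KO value lay above the highest WT value. The log2 fold change of Acrv1 in mTEClo was 2.51 (SE 0.70, adjusted p = 0.00868), and it held in all alternatives run. In mTEChi Acrv1 had 2.99, 4.18 and 3.24 CPM in KO libraries, against 4.71, 3.80 and 6.10 CPM in WT libraries, which overlap (-0.48, SE 0.49, adjusted p = 0.461), and in cTEC 0.389 to 0.737 CPM in KO and 0.212 to 1.44 CPM in WT libraries, called lower only after thinning (-2.74, adjusted p = 0.0482).

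Zpbp, which encodes a sperm protein that binds the zona pellucida, had 5.88, 6.59 and 7.19 CPM in KO mTEClo libraries, against 11.3, 9.85 and 7.89 CPM in WT mTEClo libraries (-0.57, SE 0.21, adjusted p = 0.0403). The groups did not overlap, but the call was lost on leaving out any mTEClo library other than WT pool 3 (adjusted p = 0.058 to 0.172) and with no filter on low counts (0.0701). In mTEChi Zpbp had 13.6, 11.2 and 9.87 CPM in KO libraries, against 8.87, 10.3 and 11.5 CPM in WT libraries, and in cTEC 6.52 to 7.73 CPM in KO and 6.26 to 8.15 CPM in WT libraries, with overlap in both. Of its exon bases 5.2% lie opposite exons of Spata48. Brdt, a bromodomain protein of meiotic and later male germ cells, had 1.42, 1.18 and 0.765 CPM in KO mTEClo libraries, against 3.17, 3.63 and 1.19 CPM in WT mTEClo libraries. These overlapped, and the call (-1.26, SE 0.42, adjusted p = 0.024) was lost without KO pool 5 or 6 or WT pool 1 or 2 (0.0541 to 0.133) and after thinning (0.167). Brdt had 1.08 to 2.50 CPM in KO mTEChi, 1.90 to 2.61 CPM in WT mTEChi, 2.79 to 3.30 CPM in KO cTEC and 2.02 to 2.13 CPM in WT cTEC, and was called in neither.

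Tnp2, a transition protein that replaces histones in spermatids, had 1.91, 6.68 and 5.60 CPM in KO mTEChi libraries, against 9.70, 6.18 and 6.10 CPM in WT mTEChi libraries, which overlap (-0.60, SE 0.54, adjusted p = 0.395). In cTEC it had 0.0661, 0.324 and 0.0526 CPM in KO libraries, against 0.218, 0.478 and 1.17 CPM in WT libraries (-2.09, SE 0.76, adjusted p = 0.0295). The cTEC groups overlapped, and the call was lost without WT pool 3 (0.223), without KO pool 4 or 6 (0.0969 and 0.122) and after thinning (0.056). The protamine genes Prm1 and Prm2, Ldhc and Adam2 were not called in any KO comparison. Tnp1, Odf1 and Pgk2 were not tested. Tnp1 and Odf1 had 0 reads in KO cTEC and WT cTEC, and Pgk2 had 0 reads in KO mTEChi, against 0.277, 0.832 and 0.543 CPM in WT mTEChi libraries.

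The egg genes moved in opposite directions. Zp2 (Entrez 22787, chr7:120126762-120145291), which encodes a structural protein of the zona pellucida around the oocyte, was higher in KO mTEChi, with 581, 512 and 529 CPM in KO libraries, against 157, 165 and 138 CPM in WT libraries. In mTEClo Zp2 stood at 113, 93.9 and 109 CPM in KO libraries, against 27.6, 9.85 and 20.5 CPM in WT libraries. The lowest KO library was above the highest WT library in both, with log2 fold changes of 1.82 in mTEChi (3.53-fold, SE 0.24, adjusted p = 1.2e-05) and 2.43 in mTEClo (5.39-fold, SE 0.26, adjusted p = 5.78e-07). In cTEC the direction turned: Zp2 had 10.1, 6.41 and 4.16 CPM in KO libraries, against 14.9, 11.9 and 14.5 CPM in WT libraries (-1.01, SE 0.27, adjusted p = 0.00463). The KO effect in mTEChi was larger than that in cTEC by 2.83 on the log2 scale (SE 0.36, adjusted p = 6.81e-06), while that in mTEChi differed from that in mTEClo by -0.61 (SE 0.34, adjusted p = 0.267). Each of the 3 KO calls of Zp2 held in all alternatives run.

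Zp2 took most of the summed CPM of these genes in KO mTEChi and KO mTEClo, and less elsewhere. It held 77.8 to 79.0% of the summed CPM of the 44 members in KO mTEChi and 36.6 to 42.4% in WT mTEChi, 68.0 to 71.2% in KO mTEClo and 15.1 to 31.4% in WT mTEClo, and 9.41 to 17.7% in KO cTEC and 18.7 to 22.9% in WT cTEC. The 5 other egg genes together had 6.77 to 10.3 CPM in KO mTEChi, against 27.3 to 34.1 CPM in WT mTEChi. The 38 testis genes together had 138 to 145 CPM in KO mTEChi, against 197 to 210 CPM in WT mTEChi, and 43.1 to 50.3 CPM in KO mTEClo, against 53 to 59.4 CPM in WT mTEClo. In cTEC they had 38.3 to 44.8 CPM in KO and 46.5 to 50 CPM in WT libraries. These sums add libraries' CPM without regard to gene length and carry no test.

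**Figure D4:**
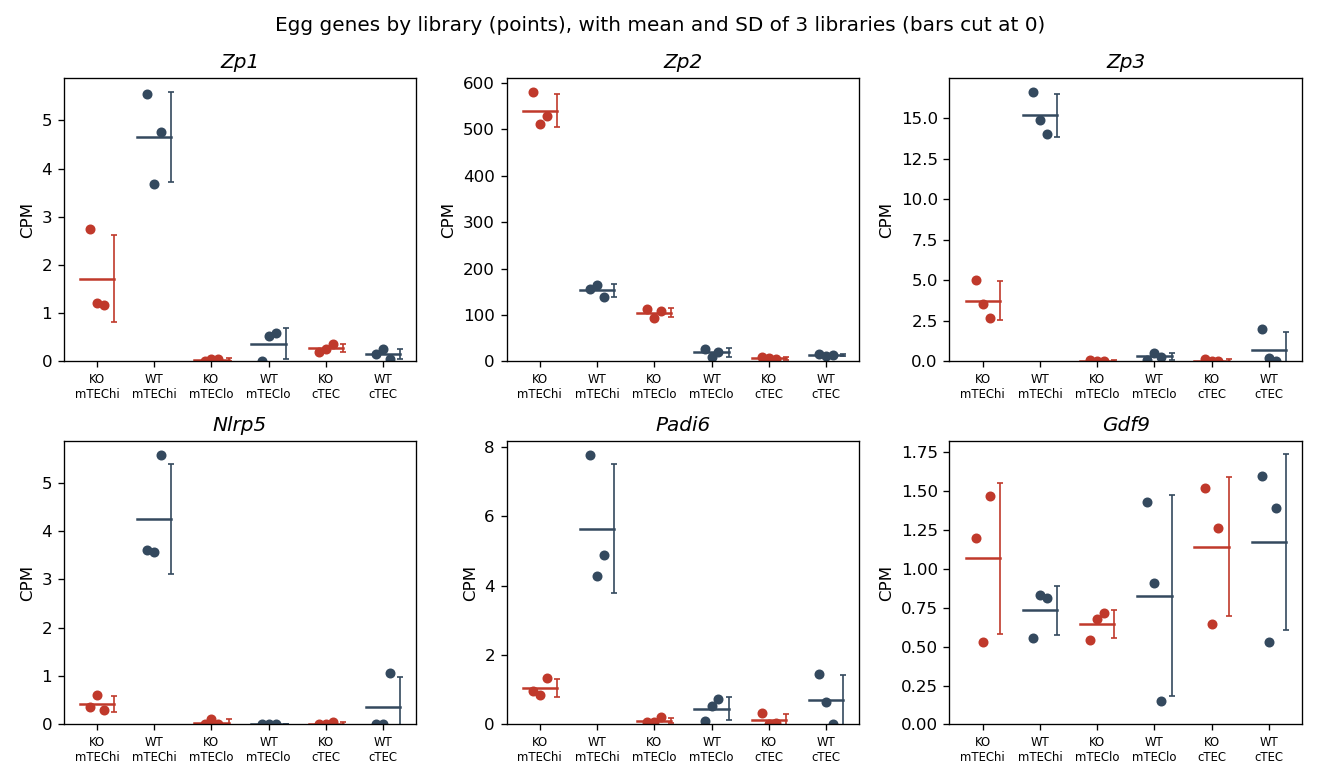
CPM of the 6 egg genes in each library (points), with the mean (line) and SD (bar, cut at 0) of 3 libraries per group, KO in red and WT in dark blue; each panel has its own scale. Zp2 reaches 512 to 581 CPM in KO mTEChi, above the 138 to 165 CPM of WT mTEChi, whereas Zp1, Zp3, Nlrp5 and Padi6 lie lower in KO mTEChi than in WT mTEChi.

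Zp3 (Entrez 22788, chr5:135980105-135988624), the zona protein that sperm first meet in the classical model, had 5.02, 3.57 and 2.65 CPM in KO mTEChi libraries, against 16.6, 14.9 and 14.0 CPM in WT mTEChi libraries. The groups lay far apart (log2 fold change -2.0, SE 0.68, adjusted p = 0.0261), although the call was lost on leaving out any mTEChi library other than KO pool 4 (adjusted p = 0.0685 to 0.0956) and with DESeq2 (0.146). In cTEC Zp3 had 2 reads in KO libraries and 31 in WT libraries, a level 15-fold lower in KO (95% interval from counting error 3.81 to 129; adjusted p = 0.0164). Of the WT cTEC libraries pool 1 had 1.97 CPM, pool 2 0.212 CPM and pool 3 0 CPM, so the groups overlapped. The cTEC call was lost without WT pool 1 (0.45), without KO pool 5 or 6 (0.0583 and 0.0679) and after thinning (0.322). Zp1, which cross-links the zona filaments, had 2.75, 1.22 and 1.18 CPM in KO mTEChi libraries, against 5.54, 3.68 and 4.75 CPM in WT mTEChi libraries. These did not overlap and did not pass the test (-1.43, SE 0.61, adjusted p = 0.0734) except when mTEChi alone was fitted (-1.40, adjusted p = 0.00724). In mTEClo Zp1 had 2 reads in KO and 8 in WT libraries, 8.63-fold lower (interval 1.72 to 83.4; adjusted p = 0.0382), with overlap, and the call was lost on leaving out any mTEClo library other than WT pool 1 (0.0644 to 0.167) and after thinning (0.101).

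Nlrp5 and Padi6 encode proteins that eggs store for the early embryo. Nlrp5 (Entrez 23968, chr7:23385889-23441923) had 0.359, 0.608 and 0.295 CPM in KO mTEChi libraries, against 3.60, 3.57 and 5.56 CPM in WT mTEChi libraries (-3.25, SE 0.99, adjusted p = 0.0166). The groups did not overlap, and the call was lost without KO pool 4 or 6 or WT pool 3 (0.0627 to 0.0676). In cTEC Nlrp5 had 1 read in KO libraries and 20 in WT libraries, 19.3-fold lower (interval 3.09 to 800; adjusted p = 0.0467). All 20 WT reads came from pool 3, and without that pool the log2 fold change was 1.56 (adjusted p = 0.457); without KO pool 4, 5 or 6 the adjusted p was 0.0654 to 0.122, and after thinning 0.382. Padi6 (Entrez 242726, chr4:140727355-140742643) had 0.957, 0.835 and 1.33 CPM in KO mTEChi libraries, against 7.76, 4.28 and 4.88 CPM in WT mTEChi libraries, also without overlap (-2.43, SE 0.83, adjusted p = 0.0281). The Padi6 call was lost on leaving out any 1 of the 6 mTEChi libraries (0.0517 to 0.0953). In cTEC it had 0 to 0.330 CPM in KO and 0 to 1.46 CPM in WT libraries, with no call (-2.36, SE 1.02, adjusted p = 0.0623) but calls with DESeq2 (adjusted p = 0.0367), after thinning (0.0444), without KO pool 4 (0.0203) and without WT pool 3 (0.00423). Gdf9, an oocyte growth factor, had 0.532 to 1.47 CPM in KO mTEChi and 0.554 to 0.832 CPM in WT mTEChi libraries and was called in no comparison.

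Per length of transcript the order of the members changed. As CPM divided by the gene length in kilobases (RPKM), Zp2 came first in KO mTEChi at 246 ± 16.4 and in WT mTEChi at 69.6 ± 6.23 RPKM (SD, n = 3 each). Piwil4 was next at 19.2 ± 1.38 RPKM in KO mTEChi and 20.6 ± 1.39 RPKM in WT mTEChi. In KO mTEChi Spo11 (9.58 ± 0.532 RPKM) and Tnp2 (8.60 ± 4.55 RPKM) followed, and the wide SD of Tnp2 took in the Spo11 mean. In WT mTEChi Tnp2 (13.3 ± 3.73 RPKM), Zp3 (11.5 ± 1.02 RPKM) and Spo11 (11.1 ± 0.986 RPKM) followed. The wide SD of Tnp2 took in the means of Zp3 and Spo11, and these lay within each other's SD. In KO cTEC Spo11 was first at 5.53 ± 0.233 RPKM, ahead of Zp2 at 3.13 ± 1.37 RPKM, while in WT cTEC Zp2 was first at 6.26 ± 0.72 RPKM and Spo11 followed at 3.81 ± 1.72 RPKM.

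Lists of other germline genes were tested whole in the same fit. Of 20 other egg genes tested, 10 were lower and 0 higher in KO mTEChi, against 19.3% and 17.1% of all genes (median log2 fold change -1.38 beside -0.11). All 20 were higher in WT mTEChi than in WT mTEClo and in WT cTEC, so they may have passed the filter on low counts through that group. The smallest adjusted p-values belonged to Dppa3, a maternal protein that protects DNA methylation in the zygote, at 8.73 CPM in KO and 79.2 CPM in WT mTEChi (-3.16, SE 0.48, adjusted p = 5.78e-05). Khdc3, of the subcortical maternal complex that also holds NLRP5, averaged 6.44 CPM in KO and 30.6 CPM in WT mTEChi (-2.25, SE 0.36, adjusted p = 9.92e-05), and its partner Ooep 35.6 CPM in KO and 79.8 CPM in WT mTEChi (-1.16, SE 0.24, adjusted p = 0.000935). Nlrp9b was at 0.584 CPM in KO and 4.68 CPM in WT mTEChi (adjusted p = 0.0014). These 4 were lower in KO mTEChi, where Zp2 was higher. In mTEClo 4 of the 20, against 15.8% of all genes, were lower (Nlrp9b, Zar1, Dppa3 and Sohlh1) and 1 higher (Nlrp4f, at 1.95 CPM in KO and 0.198 CPM in WT mTEClo, adjusted p = 0.00497). In cTEC 5 were lower, Zar1, Dppa3, Nlrp9b, Oosp1 and Tle6, and 0 higher, against 26.7% and 22.3% of all genes. The shares of lower genes in mTEClo and cTEC thus lay near those of all genes.

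Of 25 other meiosis genes, 8 were lower and 1 higher in KO mTEChi, against 19.3% and 17.1% of all genes (median -0.65 beside -0.11). Syce2, a central element protein of the synaptonemal complex, averaged 5.71 CPM in KO and 24 CPM in WT mTEChi (-2.06, SE 0.27, adjusted p = 1.36e-05) and 2.13 CPM in KO and 9.76 CPM in WT mTEClo (-2.20, SE 0.29, adjusted p = 7.08e-06). Mei4, needed for meiotic DNA breaks, was lower in all 3 subsets, with log2 fold changes of -1.04 in mTEChi (adjusted p = 0.000498), -1.60 in mTEClo (4.54e-06) and -2.54 in cTEC (1.66e-08). Rec114, which acts with Mei4, averaged 1.35 CPM in KO and 7.41 CPM in WT mTEChi (adjusted p = 0.000892), and Mlh3, a mismatch repair gene with roles outside meiosis, was the 1 higher gene at 35.9 CPM in KO and 19.4 CPM in WT mTEChi (0.87, adjusted p = 0.000524). In mTEClo 3 were lower and 2 higher, shares below the 15.8% and 18.9% of all genes. Stra8, which starts meiosis in response to retinoic acid, was higher there at 3.59 CPM in KO and 0.548 CPM in WT mTEClo (2.72, SE 0.41, adjusted p = 3.57e-05), as was Hsf2bp at 2.51 CPM in KO and 0.705 CPM in WT mTEClo (1.82, SE 0.39, adjusted p = 0.00114). In cTEC 3 were lower (Mei4, Iho1 and Meig1) and 0 higher, below the 26.7% and 22.3% of all genes.

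Of 13 other piRNA genes, 4 were lower and 1 higher in KO mTEChi, 1 lower and 1 higher in mTEClo, and 2 lower and 1 higher in cTEC. Of these shares only that of lower genes in mTEChi, 4 of 13, exceeded its share among all genes (19.3%). The lower genes with the smallest adjusted p-values in mTEChi were Tdrd12 (0.714 CPM in KO and 3.33 CPM in WT, adjusted p = 0.0049), Nanos3 (0.179 CPM in KO and 1.25 CPM in WT, adjusted p = 0.0121) and Rnf17 (0.830 CPM in KO and 3.58 CPM in WT, adjusted p = 0.0205), and the higher one was Henmt1 (24.9 CPM in KO and 16.4 CPM in WT, adjusted p = 0.0167). Of 19 other spermatid and sperm genes, 4 were lower and 1 higher in mTEChi, 2 lower and 2 higher in mTEClo, and 3 lower and 2 higher in cTEC. The share lower in mTEChi was near the 19.3% of all genes, and the others were below theirs. The linker histone gene H1f7 rose in all 3 subsets, at 10.2 CPM in KO and 3.21 CPM in WT mTEChi (1.65, SE 0.42, adjusted p = 0.00533), at 0.758 CPM in KO and 0.0773 CPM in WT mTEClo (adjusted p = 0.00482), and at 0.529 CPM in KO cTEC against 0 reads in WT cTEC (adjusted p = 8.85e-05). Spaca3, an acrosomal protein gene, was at 0.141 CPM in KO and 2.26 CPM in WT mTEChi (-3.67, SE 0.88, adjusted p = 0.0046).

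**Figure D5:**
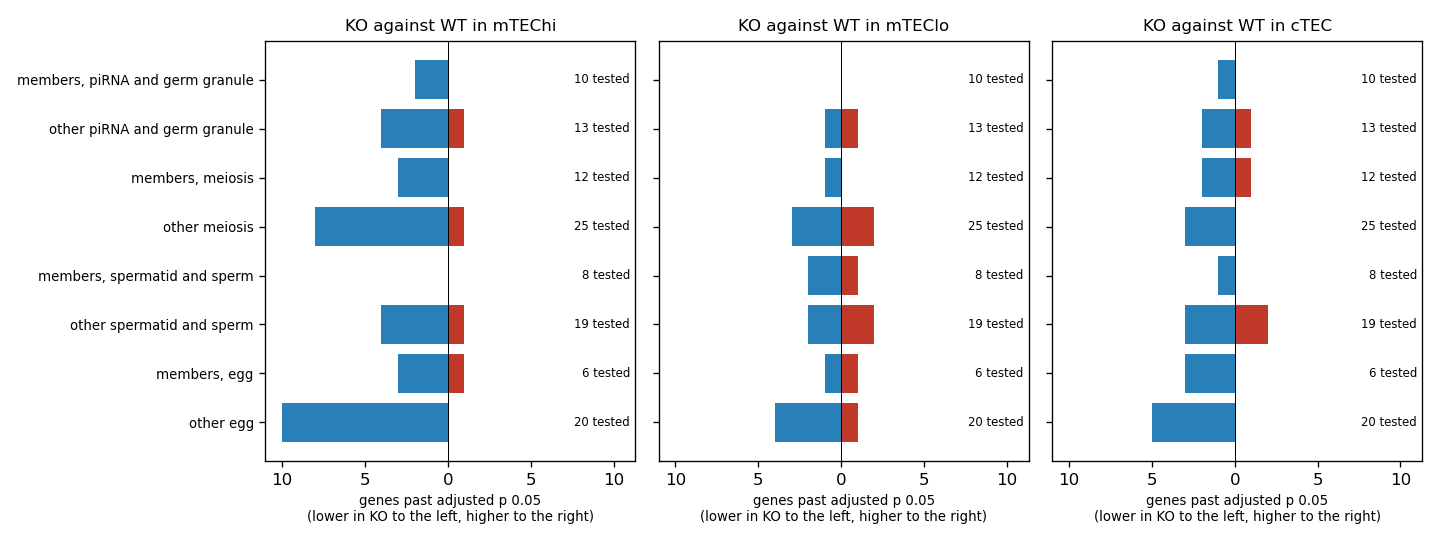
Number of genes lower in KO (blue, to the left) and higher in KO (red, to the right) at an adjusted p of 0.05 in mTEChi, mTEClo and cTEC, for the members by role and for the lists of other germline genes, with the number tested beside each bar. The longest bar is that of the other egg genes in mTEChi, with 10 of 20 lower and 0 higher.

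Of 20 tested repressors of germline genes, 4 were higher and 1 lower in KO mTEChi, against 17.1% and 19.3% of all genes, so the share that was higher was near that of all genes. Rnf2, a ubiquitin ligase of PRC1, was higher in all 3 subsets, at 55.7 CPM in KO and 35.1 CPM in WT mTEChi (0.65, SE 0.14, adjusted p = 0.00124), 81.4 CPM in KO and 49.4 CPM in WT mTEClo (0.72, SE 0.13, adjusted p = 0.000302), and 103 CPM in KO and 54.9 CPM in WT cTEC (0.91, SE 0.13, adjusted p = 1.03e-05). The others higher in mTEChi were E2f6 (0.76, adjusted p = 0.00695), L3mbtl2 (0.61, adjusted p = 0.0139) and Kdm1a (0.43, adjusted p = 0.00228); E2F6 and L3MBTL2 are subunits of PRC1.6, and L3mbtl2 was lower in KO cTEC (-0.51, adjusted p = 0.0182). The lower one was Uhrf1, which guides maintenance methylation (-0.84, adjusted p = 0.0266). In mTEClo 4 were lower and 1 higher (15.8% and 18.9% of all genes), and in cTEC 7 lower and 2 higher (26.7% and 22.3%). Dnmt1 and Dnmt3b were lower in both (Dnmt1 -0.72 in mTEClo, adjusted p = 0.0022, and -1.23 in cTEC, adjusted p = 4.86e-06). Of 16 activators of germline genes, 4 were lower and 0 higher in KO mTEChi, against 19.3% and 17.1% of all genes: Taf4b (-0.60, adjusted p = 0.0102), Taf7l, Rfx4 and Sohlh1, the last of which is also on the egg list. The genes named from these 2 lists were chosen after their values were seen.

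Cell markers moved with the comparisons, and their part in the results was not tested. Of all genes, 19.3% were lower and 17.1% higher in KO mTEChi, 15.8% and 18.9% in KO mTEClo, and 26.7% and 22.3% in KO cTEC. The 10 mTEC markers moved both ways, with 3 higher and 2 lower in KO mTEChi, 3 and 4 in KO mTEClo, and 1 and 6 in KO cTEC. Among them, Aire had a log2 fold change of -0.81 in mTEChi, at the threshold (SE 0.31, adjusted p = 0.05 as rounded). Aire was not called in mTEClo (0.07, SE 0.33, adjusted p = 0.897) and was lower in KO cTEC (-1.53, SE 0.34, adjusted p = 0.000895). Of the 10 cTEC markers, 9 were higher in KO mTEChi, where they summed to 5330 to 5820 CPM in KO and 3330 to 3600 CPM in WT libraries, and 9 of 10 were higher in each of KO mTEClo and KO cTEC. Of 9 tested macrophage and dendritic cell markers, 5 were lower and 1 higher in KO mTEChi, where the list summed to 826 to 983 CPM in KO and 1520 to 1580 CPM in WT libraries. In cTEC 4 of them were lower, with sums of 36.3 to 45.8 CPM in KO and 143 to 215 CPM in WT libraries. Of 12 proliferation markers, 3 were lower and 1 higher in KO mTEChi, with sums of 426 to 558 CPM in KO and 578 to 689 CPM in WT libraries, and 6 were higher in KO cTEC, with sums of 225 to 265 CPM in KO and 140 to 169 CPM in WT libraries. Of 12 thymocyte markers, 10 were higher in KO cTEC, with sums of 301 to 492 CPM in KO and 63.6 to 162 CPM in WT libraries.

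The 8 markers of mural cells and fibroblasts moved both ways. In KO mTEChi 3 were higher and 2 lower, with sums of 559 to 650 CPM in KO and 299 to 317 CPM in WT libraries. In KO mTEClo 2 were higher and 3 lower, with sums of 714 to 813 CPM in KO and 1090 to 1240 CPM in WT libraries. In KO cTEC 2 were higher and 5 lower, with a median log2 fold change of -1.75, while the sum was 2420 to 2560 CPM in KO and 1260 to 1410 CPM in WT libraries. Dcn alone averaged 2050 CPM in KO cTEC and 612 CPM in WT cTEC. The 5 endothelial markers, 2 of them tested, summed to 64.4 to 70.7 CPM in KO and 31.1 to 36.3 CPM in WT mTEChi, to 53.2 to 73.7 CPM in KO and 20.5 to 28.2 CPM in WT mTEClo, and to 7.77 to 8.73 CPM in KO and 22.7 to 39.9 CPM in WT cTEC. Of 9 tested markers of gonad somatic cells, 2 were lower and 1, Sox9, was higher in KO mTEChi. Their median log2 fold change was -0.71, with 8 of 9 below 0, against 10830 of 19364 for all genes. The list summed to 238 to 262 CPM in KO and 202 to 229 CPM in WT mTEChi, of which Sox9 alone averaged 182 CPM in KO and 95.9 CPM in WT libraries. Amh and Fshr, which define Sertoli and granulosa cells, were at 0 in KO mTEChi and averaged 0.0396 CPM each in WT mTEChi, while Gata4, Inha, Inhbb and Star averaged 11.1 to 19.6 CPM in KO and 13.8 to 29 CPM in WT mTEChi.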

How the data were processed

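The authors deposited raw read counts per gene, made with featureCounts on mm10 per the submitters' processing notes; the aligner, versions and counting settings are not given in the sources used here. RNA was amplified with a SMART-Seq kit and fragmented with Nextera XT, per the labels' protocols, so reads carry no strand and no molecular identifiers, and the intervals given cover counting error only. The 18 single files were identical to the joint table. Genes were kept with filterByExpr (minimum count 10), scaled by TMM and fitted with 6 group means in edgeR 4.0.16 (R 4.3.3; 12 residual degrees of freedom) by glmQLFit and glmQLFTest. SE is the log2 fold change divided by the root of F. The fit was tested on simulated data. Pools pair the subsets within a genotype because the labels give the same pool numbers to them; deviations of same-pool libraries correlated at 0 to 0.24, and 3 of 18 pairs exceeded 0.1. Values per library are given for tested members called in a KO comparison or with a group mean of at least 5 CPM, which were 20; from each list of other germline genes up to 4 genes per KO comparison with the smallest adjusted p were eligible. Of 271 list entries 268 were matched by name, 3 of them by synonym. Alternatives were RLE size factors, DESeq2 1.42.0, no filter, the compared groups alone, thinning to 3554089 counts, the pool as a block, and leaving out each library. Members and lists were chosen with earlier results of these data known. Promoters and gene coordinates are RefSeq GRCm38.p6, the same assembly as mm10, and exon overlaps GENCODE M21.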

Additional observations from a re-analysis of the deposited data

Results flagged for a closer look

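The effect of the knockout differed between subsets, by the test of the difference itself, for 3 members. For Zp2 the log2 fold change of KO over WT was higher in mTEChi than in cTEC by 2.83 (SE 0.36, adjusted p = 6.81e-06), and it passed in all alternatives run. For Acrv1 it was lower in mTEChi than in mTEClo, a difference of -3.00 (SE 0.86, adjusted p = 0.0246), lost without KO mTEChi pool 4, WT mTEChi pool 3, KO mTEClo pool 5 or WT mTEClo pool 1, 2 or 3 (adjusted p = 0.0504 to 0.0656). For Msh4 it was lower in mTEChi than in cTEC, a difference of -2.45 (SE 0.74, adjusted p = 0.0161), lost after thinning (0.148), without WT mTEChi pool 3 (0.0563) and without KO cTEC pool 4 (0.0596). Among all genes tested, 13.5% passed for mTEChi against mTEClo and 31.5% for mTEChi against cTEC. Why these effects differ was not tested.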

How the results depend on the processing

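For the 20 members with values given per library, 94 calls over the 9 comparisons were set against the alternatives. Calls of the other tested members were left out, and an alternative that filtered out the gene gave no value. The 1107 values gave 990 with the same direction and call, 116 with the same direction but no call, and 1 reversed. The reversed one was Nlrp5 in cTEC, at 1.56 without WT pool 3, its values with 1 library left out running from -5.21 to 1.56. These totals pool KO calls with calls between subsets, and a larger share of the KO calls was lost. Padi6 in KO mTEChi passed in 5 of 11 alternatives, Zp1 in KO mTEClo in 4 of 10 and Nlrp5 in KO cTEC in 5 of 10. Tdrd9, Dmc1, Msh5 and Zp2 in KO mTEChi passed in all 11. With only the compared groups fitted, 14 members were lower in KO mTEChi (8 as reported), 0 higher and 2 lower in KO cTEC (1 and 7), 1 lower in KO mTEChi than in KO mTEClo (0), 1 lower in KO mTEChi than in KO cTEC (2), and 1 higher and 3 lower for the difference of KO effects between mTEChi and mTEClo (0 and 1), which DESeq2 gave as 2 lower. After thinning, 2 were lower in KO mTEClo (4), 0 higher and 4 lower in KO cTEC (1 and 7), 18 higher in WT mTEChi than in WT cTEC (29), 11 higher in KO mTEChi than in KO mTEClo (20), 15 higher in KO mTEChi than in KO cTEC (26), and 0 lower for the difference between mTEChi and cTEC (1); thinning leaves fewer reads. With no filter 0 were higher in KO cTEC and 2 lower for the difference between mTEChi and cTEC. The cause of the other changes was not tested. Genes lower in KO mTEChi with only the compared groups fitted were 3879 of 17272 against KO mTEClo and 5308 of 17232 against KO cTEC. The difference of KO effects between mTEChi and mTEClo then gave 2482 of 18101 higher and 1636 lower, and DESeq2 gave 1557 of 19364 lower. That between mTEChi and cTEC gave 2140 of 24856 lower with no filter and 1806 of 16518 after thinning. Members that an alternative filtered out count as not called. Leaving out 1 library gave, for higher and lower members, 1 and 4 to 7 in KO against WT mTEChi, 2 and 1 to 3 in mTEClo, and 0 to 1 and 3 to 10 in cTEC. For mTEChi over mTEClo it gave 16 to 19 and 0 in KO mice and 25 to 29 and 1 in WT mice. For mTEChi over cTEC it gave 23 to 27 and 1 to 2 in KO mice and 27 to 32 and 1 in WT mice. The differences of KO effects gave 0 and 0 to 2 for mTEChi minus mTEClo and 1 and 0 to 3 for mTEChi minus cTEC. Of 19614 to 19923 genes tested then, those higher and lower in KO were 2394 to 3140 and 2436 to 2964 in mTEChi. They were 2761 to 3624 and 2346 to 2862 in mTEClo, and 3680 to 4395 and 4443 to 5192 in cTEC. For mTEChi over mTEClo they were 3844 to 4174 and 3634 to 3983 in KO mice. In WT mice they were 5903 to 6121 and 4424 to 4933. For mTEChi over cTEC they were 6151 to 6467 and 4719 to 4992 in KO mice. In WT mice they were 6436 to 7270 and 4902 to 5586. With the pool as a block, members higher and lower in mTEChi than in mTEClo were 19 and 0 in KO mice and 26 and 1 in WT mice, and those higher and lower than in cTEC were 26 and 2 in KO mice and 28 and 1 in WT mice; the interactions kept their counts. Members near 1 CPM rest on a few reads per library, and the smallest difference this depth could show was not tested.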

Other observations

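The neighbours of Zp2 on chromosome 7 were looked up after its values were seen. Within 100 kb of the gene in RefSeq GRCm38.p6 lay 5 other genes, all tested. Crym, which encodes a thyroid hormone binding protein and lies at chr7:120186380-120201989, averaged 235 ± 11.6 CPM in KO mTEChi and 60.7 ± 4.92 CPM in WT mTEChi (SD, n = 3 each), a log2 fold change of 1.96 (SE 0.19, adjusted p = 3.65e-07). The mTEClo means of Crym were 285 ± 18.9 CPM in KO and 58.4 ± 13.5 CPM in WT libraries (2.28, SE 0.19, adjusted p = 1.96e-08), and in cTEC 21.0 ± 6.07 CPM in KO and 27.1 ± 6.53 CPM in WT libraries (-0.36, SE 0.19, adjusted p = 0.118). The corresponding log2 fold changes of Zp2 were 1.82, 2.43 and -1.01. Anks4b lies between Zp2 and Crym and was not called higher in any subset, with 16.5 ± 1.46 CPM in KO and 29.9 ± 4.48 CPM in WT mTEChi (-0.86, SE 0.34, adjusted p = 0.0531) and 0.507 ± 0.208 CPM in KO and 8.54 ± 6.22 CPM in WT cTEC (-4.02, SE 0.45, adjusted p = 5.19e-07). On the other side of Zp2, Tmem159 was higher in all 3 subsets, by 0.42 in mTEChi (SE 0.10, adjusted p = 0.0033), 0.56 in mTEClo (0.000177) and 0.37 in cTEC (0.00353), where Zp2 was lower. Dnah3, an axonemal dynein gene of motile cilia and sperm tails, fell in all 3 subsets, with log2 fold changes of -2.28 in mTEChi (adjusted p = 0.00109), -1.96 in mTEClo (0.00129) and -4.08 in cTEC (5.12e-06). Abca14, the fifth neighbour, was at 1.07 CPM in KO and 3.81 CPM in WT mTEChi (-1.81, SE 0.64, adjusted p = 0.0354) and was not called in mTEClo (adjusted p = 0.608) or cTEC (0.361). Whether the transcripts of Zp2 and Crym share a start or a control region was not tested.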
